A study of Homo sapiens with 4 samples.

Results

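The genes described here are the core of the G1 cell cycle machinery, namely the D cyclins CCND1, CCND2 and CCND3, the E cyclins CCNE1 and CCNE2, the kinases CDK2, CDK4 and CDK6, the pocket protein gene RB1 and the transcription factor gene E2F1. They were chosen by symbol, matched through their Ensembl identifiers, and all 10 were found among the 58735 genes of the count table. RNA was sequenced from MDA-MB-231 and SUM159, 2 human lines of triple-negative breast cancer (TNBC), each treated for 72 h with 1 μM mebendazole (MBZ), an anthelmintic that disrupts tubulin, or with its solvent DMSO. Each of the 4 conditions had 1 library, so no value below has a replicate from a separate culture. MDA-MB-231 cells came from ATCC and SUM159 cells were a gift from another laboratory, and the lines were kept in different media, so line, medium and source cannot be told apart.

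In G1, D cyclins bind CDK4 or CDK6 and E cyclins bind CDK2. These kinases phosphorylate the retinoblastoma protein, which then releases E2F factors such as E2F1, and E2F1 activates genes for DNA synthesis as well as its own gene and those of the E cyclins. CCND1 is often amplified or highly expressed in breast cancer, whereas loss of RB1 or gain of CCNE1 is a known feature of some TNBC.

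Among the members, E2F1 and CCNE1 are known targets of E2F factors, and both had lower counts with MBZ in MDA-MB-231 and higher counts in SUM159. For CCNE1 the fall in MDA-MB-231 was about that of the library total, with a log2 fold change of -0.02 after scaling by total counts. The stretches upstream of these 2 members are shown. They are the 250 bases before the RefSeq start of each gene on GRCh38.p14, read on the strand of the gene, at chr20:33686386-33686635 (minus strand) for E2F1 and at chr19:29811741-29811990 (plus strand) for CCNE1, and capitals mark matches to an E2F motif.
E2F1: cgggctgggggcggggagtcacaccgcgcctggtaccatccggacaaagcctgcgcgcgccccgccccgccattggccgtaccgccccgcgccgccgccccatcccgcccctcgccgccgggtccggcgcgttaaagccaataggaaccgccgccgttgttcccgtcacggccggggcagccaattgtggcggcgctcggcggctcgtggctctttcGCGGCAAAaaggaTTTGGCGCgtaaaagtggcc
CCNE1: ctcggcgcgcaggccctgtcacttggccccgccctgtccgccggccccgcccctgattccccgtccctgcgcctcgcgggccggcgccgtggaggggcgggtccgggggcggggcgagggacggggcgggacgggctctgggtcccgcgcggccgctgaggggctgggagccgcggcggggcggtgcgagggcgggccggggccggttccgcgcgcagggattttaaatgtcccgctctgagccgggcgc

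The motif was searched as TTTCCCGC, TTTCGCGC, TTTGCCGC and TTTGGCGC on both strands. E2F1 held 2 matches, TTTGCCGC on the opposite strand at 33 to 26 bases before the start and TTTGGCGC on the gene's own strand at 20 to 13 bases before it. The matches do not overlap each other. CCNE1 held none of these letters in its window. Among the 10 members, 6 had a RefSeq window in the table used, and 1 of their 9 windows held a match. The windows of CDK4 and RB1, those of CCND3 and 1 of CDK6 lie within the annotated gene, at alternative starts. Over all 35116 windows, 2.79% held a match. Counted by gene, 3.4% of 27305 genes with a window had a match, and among the E2F target genes of G1/S listed further on it was 10 of 22, or 45.5%. It was 4 of 9 in the list of pocket proteins, E2F and DP factors and 1 of 9 in the list of G2/M cyclins and kinases.

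The counts of a library summed to between 17143139 and 24897586, and mitochondrial genes took 2.68% to 4.1% of them. The labels of both lines as TNBC were compared with marker genes. PGR had no count in any library and ESR1 had 0 to 18 counts, while ERBB2 had 1216 to 1996. The mesenchymal genes VIM and CD44 had at least 20703 and 7435 counts in every library, and CDH1 had at most 12. Of markers of other cells, CD3E (T cells) had 0 or 1 count, PTPRC (leukocytes) 8 to 216 and PECAM1 (endothelium) 328 to 825. These markers check the cell type and not the treatment, and no gene was deleted or introduced that could check which library had MBZ. The directions below rest on the treatment labels, and an exchange of the labels of a line would turn the sign of each of its fold changes. The proliferation gene MKI67 was, in CPM (counts scaled for library size but not for length), at 700.5 in MDA-MB-231 with DMSO and at 313.8 with MBZ, and in SUM159 at 53.43 and 281.3. CDKN1A, which encodes p21, and the mitotic cyclin gene CCNB1 were both higher in the SUM159 library labelled MBZ. CDKN1A had 134.4 CPM against 63.93, and the log2 fold changes of CDKN1A and CCNB1 were 1.07 and 2.88. In MDA-MB-231 both genes were lower in the library labelled MBZ, with log2 fold changes of -0.11 and -0.62. The value of CDKN1A there became 0.16 with scaling by total counts.

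Levels are given as RPKM, counts per kilobase of exons after scaling for library size, so that genes of different length can be set side by side. CCND1 was the most abundant member in every library, at 73.41 to 171.3 RPKM. CDK4 (34.46 to 60.7 RPKM) and CCND3 (28.78 to 37.37 RPKM) came next, apart from E2F1 in MDA-MB-231. CCND2 and CCNE2 were the least abundant, with CCND2 lowest in MDA-MB-231. E2F1 moved most in this order. It was second in MDA-MB-231 with DMSO at 69.75 RPKM and close to RB1 in SUM159 with DMSO, at 5.633 against 4.616 RPKM. In that library the counting intervals of E2F1 and RB1 overlapped, as did those of CDK6 and CCNE1. With MBZ, CCND3 and E2F1 overlapped in MDA-MB-231, as did CDK6 and RB1. In SUM159 with MBZ the pairs were CCNE1 with RB1 and CCNE2 with CCND2, and no neighbours overlapped in MDA-MB-231 with DMSO. When the length of the canonical transcript was used in place of all exons, CCND3 stood higher, and in SUM159 with DMSO it reached 93.71 RPKM, below CDK4 (100.7) and above CCND1 (82.46).

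**Figure D1:**
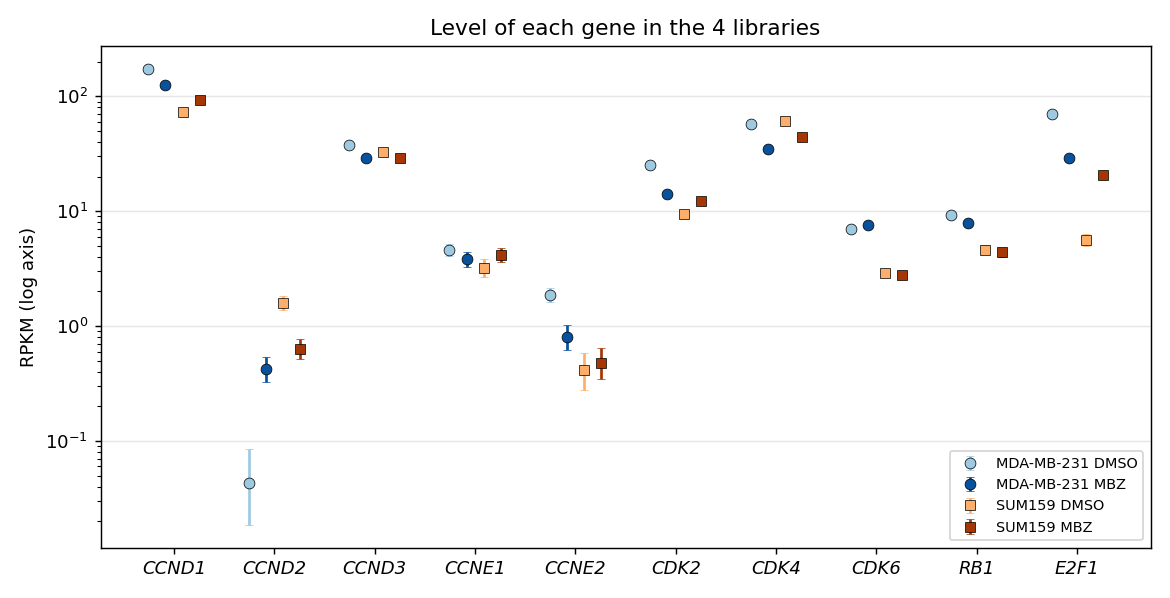
RPKM on a log axis for the 10 genes in the 4 libraries, with 1 point per library and bars for 95% Poisson intervals that cover counting error only. CCND1 is highest in every library, E2F1 spans 5.633 to 69.75 RPKM, and CCND2 in MDA-MB-231 with DMSO lies far below all other points at 0.0431 RPKM.

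Changes within a line are given as the log2 fold change of MBZ over DMSO, with a 95% interval for counting error on the reads of the 2 libraries. A gene was counted as higher or lower where it differed by at least 1.5-fold and averaged 10 counts or more over the pair, and no p-value exists within a line because each condition had 1 library. In bulk RNA, fewer cells with a transcript and less of it per cell cannot be told apart.

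The D cyclins, which link growth signals to CDK4 and CDK6, did not move together. CCND1 (ENSG00000110092, chromosome 11 from 69641156 to 69654474, 5 exons) had 18957 counts in MDA-MB-231 with DMSO and 11440 in the same line with MBZ, and in SUM159 it had 5789 and 9119. After scaling, its level was 815.6 and 601.8 CPM in MDA-MB-231 and 349.5 and 442.1 CPM in SUM159. The lines thus came closer to each other with MBZ. The log2 fold change was -0.46 (interval -0.49 to -0.42) in MDA-MB-231 and 0.34 (0.29 to 0.39) in SUM159, both under 1.5-fold. With scaling by total counts they were -0.19 and 0.64, the latter past 1.5-fold. Its exons share 497 bases, or 10.4% of its exonic length, with the opposite-strand gene LTO1.

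CCND2 (ENSG00000118971, chromosome 12 from 4269771 to 4305353, 5 exons) had the lowest counts among the D cyclins. In MDA-MB-231 it had 8 counts with DMSO and 64 with MBZ, and in SUM159 it had 211 and 105. These are levels of 0.344 and 3.37 CPM in MDA-MB-231 and 12.74 and 5.09 CPM in SUM159. The line that was low with DMSO was thus higher with MBZ, and the line that was high was lower. The log2 fold change was 3.25 (2.21 to 4.54), or 9.52-fold higher, in MDA-MB-231 and -1.32 (-1.67 to -0.98), or 2.5-fold lower, in SUM159. CCND2 is also expressed in leukocytes, and the leukocyte gene PTPRC ordered the libraries alike, with 8, 23, 216 and 60 counts in the same order. The other leukocyte marker, CD3E, had 0, 0, 0 and 1 count, and the part of other cells in the CCND2 values was not tested. Its exons share 999 bases with a gene on the same strand that had at most 1 count.

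CCND3 (ENSG00000112576, chromosome 6 from 41934934 to 42050357, 5 exons) was the steadiest D cyclin. Its 5004 and 3152 counts in MDA-MB-231 and 3145 and 3430 in SUM159 correspond to 215.3, 165.8, 189.9 and 166.3 CPM, with DMSO first in each line. The log2 fold changes were -0.39 (-0.46 to -0.33) and -0.19 (-0.26 to -0.12). The value in SUM159 changed sign, to 0.11, when libraries were scaled by total counts alone.

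The E cyclins activate CDK2 at the end of G1 and are themselves E2F targets. CCNE1 (ENSG00000105173, chromosome 19 from 29811991 to 29824312, 12 exons) had, with DMSO and MBZ in turn, 263 and 178 counts in MDA-MB-231 and 131 and 210 in SUM159. Its levels were 4.6, 3.81, 3.21 and 4.14 RPKM in the same order, so that the 4 libraries lay within a narrow band. The log2 fold change was -0.29 (-0.57 to -0.011) in MDA-MB-231 and 0.36 (0.043 to 0.69) in SUM159, with the nearer bound of each interval close to 0. With scaling by total counts they were -0.02 and 0.67, the latter past 1.5-fold.

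CCNE2 (ENSG00000175305, chromosome 8 from 94879770 to 94896678, 12 exons) had 192 and 67 counts in MDA-MB-231 and 30 and 43 in SUM159. MDA-MB-231 with DMSO stood apart at 1.88 RPKM, against 0.802 with MBZ and 0.412 and 0.474 in SUM159. In MDA-MB-231 it was 2.37-fold lower with MBZ, a log2 fold change of -1.25 (-1.67 to -0.84). In SUM159 the value of 0.20 (-0.50 to 0.93) could not be told from 0 at this depth. The opposite-strand gene INTS8 shares 37.0% of its exonic length and had more counts than CCNE2 in every library, between 579 and 621.

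Among the kinases, CDK2, the partner of the E cyclins, moved in opposite directions in the lines, CDK4 was lower with MBZ in both, and CDK6 changed little. CDK2 (ENSG00000123374, chromosome 12 from 55966781 to 55972789, 7 exons) had 2266 and 1044 counts in MDA-MB-231 and 610 and 990 in SUM159. Its levels of 97.49 and 36.83 CPM with DMSO became 54.92 and 48 CPM with MBZ, so the gap between the lines was smaller with MBZ. The log2 fold changes were -0.85 (-0.95 to -0.74), or 1.80-fold lower, and 0.38 (0.24 to 0.53). With scaling by total counts they were -0.58 and 0.68, so that the call in MDA-MB-231 was lost and SUM159 passed 1.5-fold.

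CDK4 (ENSG00000135446, chromosome 12 from 57747727 to 57756013, 8 exons), a partner of the D cyclins, had 4098 and 2027 counts in MDA-MB-231 and 3111 and 2807 in SUM159. Its levels were 176.3, 106.6, 187.8 and 136.1 CPM, and both libraries with MBZ were below both with DMSO. The log2 fold changes were -0.74 (-0.82 to -0.67), or 1.67-fold lower, and -0.46 (-0.54 to -0.39), or 1.38-fold lower. With scaling by total counts they were -0.48 and -0.16, and the call in MDA-MB-231 was lost. The opposite-strand gene TSPAN31 shares 1369 bases, or 44.2% of the exonic length of CDK4, and had 586, 684, 508 and 606 counts. Whether counting used the strand is not given in the sources used here. How reads from the shared bases of such pairs were counted, or whether they were left out, is therefore not known.

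CDK6 (ENSG00000105810, chromosome 7 from 92604921 to 92836573, 8 exons), the other partner of the D cyclins, had 1994 and 1753 counts in MDA-MB-231 and 592 and 701 in SUM159. Its levels of 85.79 and 92.22 CPM in MDA-MB-231 and 35.74 and 33.99 CPM in SUM159 separated the lines and not the treatments. The log2 fold changes of 0.087 (-0.0067 to 0.18) and -0.073 (-0.23 to 0.088) had intervals that included 0. With scaling by total counts they were 0.35 and 0.23.

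RB1 (ENSG00000139687, chromosome 13 from 48303744 to 48599436, 27 exons), which encodes the pocket protein that holds E2F factors inactive, also differed more by line than by treatment. It had 1383 and 971 counts in MDA-MB-231 and 492 and 580 in SUM159, or 59.5, 51.08, 29.7 and 28.12 CPM. Its transcript was present in all 4 libraries. The log2 fold changes were -0.24 (-0.36 to -0.12) and -0.08 (-0.25 to 0.097), and both changed sign with scaling by total counts, to 0.03 and 0.22.

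E2F1 (ENSG00000101412, chromosome 20 from 33675477 to 33686385, 7 exons), the activator downstream of RB1, had, after CCND2, the largest difference in response between the lines among the 10. In MDA-MB-231 it had 4361 counts with DMSO and 1495 with MBZ, and in SUM159 it had 251 and 1149. Its levels were 187.6, 78.64, 15.15 and 55.71 CPM. Both libraries with MBZ lay between the libraries with DMSO, which were the highest and the lowest of the 4. The log2 fold change was -1.27 (-1.36 to -1.19), or 2.42-fold lower, in MDA-MB-231 and 1.88 (1.68 to 2.08), or 3.68-fold higher, in SUM159. No other annotated gene shares its exons.

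**Figure D2:**
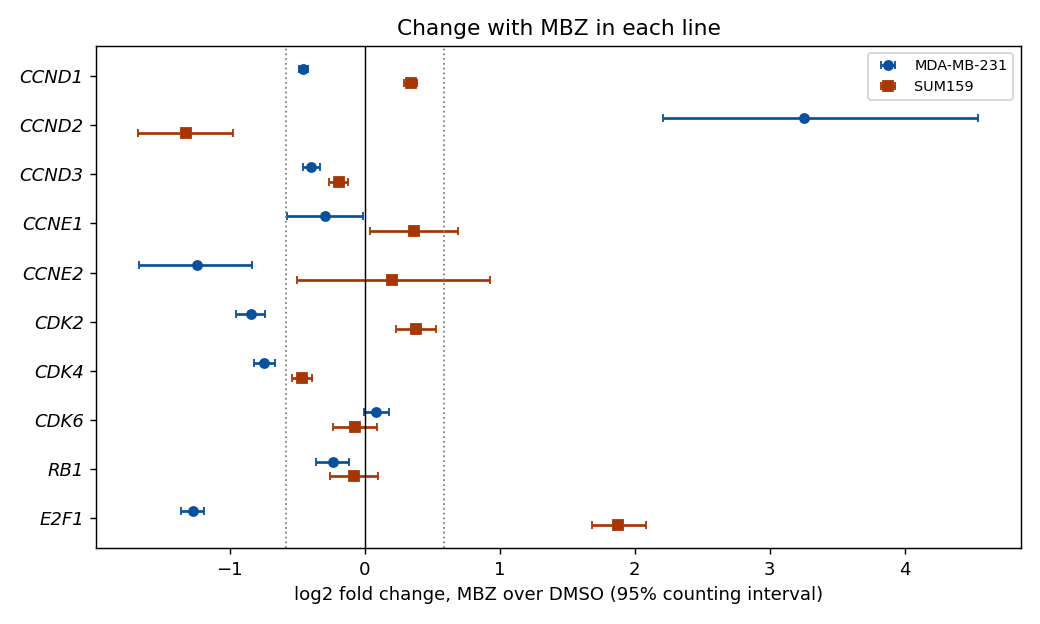
Log2 fold change of MBZ over DMSO on the x axis for each gene, with circles for MDA-MB-231 and squares for SUM159, bars for 95% counting intervals and dotted lines at 1.5-fold. E2F1 and CCND2 lie beyond the dotted lines on opposite sides in the 2 lines, whereas CDK6 and RB1 lie near 0 in both.

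All 10 members averaged 10 counts or more in both lines. In MDA-MB-231, 1 member was at least 1.5-fold higher with MBZ (CCND2), where 18.3% of all 15142 genes were, and 4 were at least 1.5-fold lower (E2F1, CCNE2, CDK2 and CDK4), where 15.8% of all genes were. The median log2 fold change of the 10 was -0.425, against -0.018 over all genes. CCND2 ranked 90 from the highest of the 15142 genes, and E2F1 and CCNE2 ranked 381 and 408 from the lowest. CCND2 passed the count filter in this line only through its 64 counts with MBZ, against 8 with DMSO. In SUM159, 1 member was higher (E2F1), against 21.5% of all 15674 genes, and 1 was lower (CCND2), against 21.7%. The median of the 10 was 0.065, against -0.034 over all genes. Scaling by total counts in place of TMM raised the median log2 fold change over the whole table, by 0.266 in MDA-MB-231 and 0.301 in SUM159. With it, 1 member was higher and 2 were lower in MDA-MB-231, against 29.1% and 7.57% of all genes, and 4 were higher and 1 was lower in SUM159, against 32.8% and 12.8%.

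The responses of the lines were then set against each other. CCND2 and E2F1 were called in opposite directions, 2 of 10 members, where 6.04% of the 13733 genes measured in both lines were. For CCND1, CCND2, CCNE1, CDK2 and E2F1, 5 of 10 members, the counting intervals lay on opposite sides of 0, as they did for 20.0% of those genes. The difference of the log2 fold changes, SUM159 minus MDA-MB-231, was 3.15 (2.94 to 3.36) for E2F1 and -4.57 (-5.69 to -3.46) for CCND2. It was 1.45 (0.66 to 2.23) for CCNE2 and 1.23 (1.05 to 1.41) for CDK2. The intervals for CDK6 (-0.34 to 0.024) and RB1 (-0.051 to 0.37) included 0. With 1 library per condition these differences have no test. CCNE1 was no longer among the genes with opposite intervals when TMM was computed over all 4 libraries or totals were used, and CCND3 joined them with totals.

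The gap between the lines was smaller with MBZ than with DMSO for 8 of the 10 members, where it was smaller for 58.6% of the 13733 genes, and larger for CDK4 and CDK6. E2F1 was 12.4-fold higher in MDA-MB-231 than in SUM159 with DMSO and 1.41-fold higher with MBZ. CCND2 was 36.4-fold higher in SUM159 with DMSO and 1.51-fold higher with MBZ. CCNE2, CDK2 and CCND1 were 4.55-fold, 2.65-fold and 2.33-fold higher in MDA-MB-231 with DMSO, and 1.69-fold, 1.14-fold and 1.36-fold higher with MBZ. CDK4 was 1.07-fold higher in SUM159 with DMSO and 1.28-fold higher with MBZ. CDK6 was 2.40-fold higher in MDA-MB-231 with DMSO and 2.71-fold higher with MBZ, and RB1 was 1.82-fold higher there with MBZ, with 59.5 against 29.7 CPM with DMSO.

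A change common to the lines was tested by quasi-likelihood in edgeR, with line and treatment in the model. The lines served as replicates of each other, so the spread is their difference in response. No member passed an adjusted p of 0.05, and 1 of 16100 genes, or 0.00621%, did. No member had an unadjusted p under 0.05 either, against 7.14% of all genes, and DESeq2 called no member. CDK4, the member lower in both lines by a larger amount than CCND3, had a log2 fold change of -0.57 ± 0.29 (SE) and an adjusted p of 0.726 in the edgeR test. The adjusted p was 0.881 for CCND3, 0.946 for E2F1 and 0.923 for CCND2 in the same test.

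The same edgeR fit tested the level in SUM159 against MDA-MB-231, with the treatments standing in for replicates. CDK6 was the only member past the threshold, with a log2 fold change of -1.30 ± 0.28 (SE) and an adjusted p of 0.0188, where 21.5% of all 16100 genes passed. Its adjusted p ranged from 0.00138 to 0.0188 over the alternatives. RB1 had a log2 fold change of -0.88 ± 0.28 (SE) and an adjusted p of 0.0659, which stayed between 0.0537 and 0.0848. E2F1 had -2.005 ± 0.76 (SE) and an adjusted p of 0.107, but 0.0256 with DESeq2 and 6.10e-06 when every gene with a count was kept. CCND2 had 2.71 ± 1.17 (SE) and an adjusted p of 0.149, but 4.75e-04 when every gene with a count was kept.

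The make-up of each class was then computed as the share of each member in the summed RPKM of its class. CCND1 made up 82.07% and 81.23% of the D cyclins in MDA-MB-231 with DMSO and MBZ, and 68% and 75.89% in SUM159. CCND3 made up most of the rest, from 17.9% to 30.53%, and CCND2 at most 1.48%. With canonical transcript lengths the share of CCND1 was 64.41%, 63.29%, 46.29% and 55.73%, so that CCND3 led in SUM159 with DMSO. CCNE1 was the main E cyclin. Its share was 70.99% and 82.6% in MDA-MB-231 with DMSO and MBZ and 88.64% and 89.72% in SUM159. CDK4 exceeded CDK6 everywhere, with 89.05% and 82.06% of their sum in MDA-MB-231 and 95.41% and 94.06% in SUM159.

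**Figure D3:**
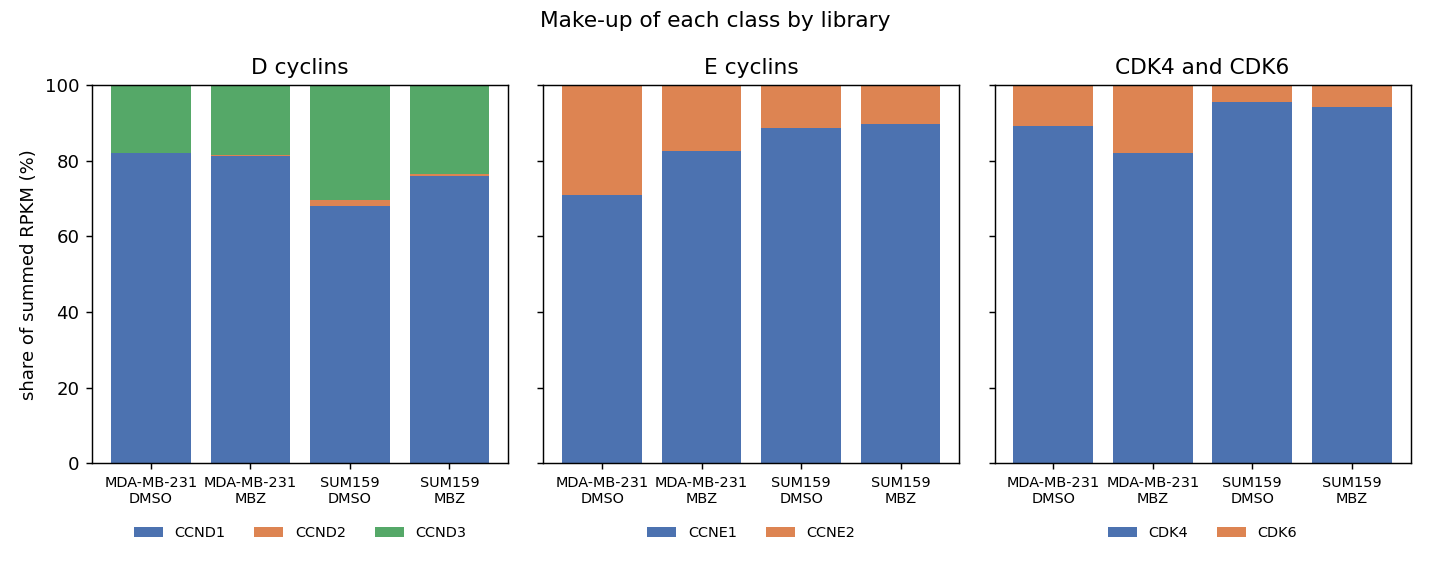
Share of the summed RPKM (y axis, %) held by each D cyclin, each E cyclin, and CDK4 or CDK6 in the 4 libraries, with exonic length used for every gene. CCND1, CCNE1 and CDK4 hold the largest share of their class in every library.

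Ratios of 2 members within a library do not depend on how libraries are scaled, and the pairs were chosen after the values were seen. The ratios, but not their changes within a line, depend on the gene lengths used, here those of all exons. With canonical transcript lengths in SUM159 with DMSO, E2F1 (5.633 RPKM) lay below RB1 (6.229) and CCND1 (82.46) below CCND3 (93.71). The ratio of E2F1 to RB1 in RPKM went from 7.54 with DMSO to 3.68 with MBZ in MDA-MB-231 and from 1.22 to 4.74 in SUM159. The log2 changes of this ratio were -1.03 (-1.18 to -0.89) and 1.96 (1.69 to 2.22). The ratio of CDK4 to CDK6 was lower with MBZ in both lines, from 8.13 to 4.57 in MDA-MB-231 and from 20.8 to 15.8 in SUM159. The ratio of CCND1 to CCND3 was 4.58 and 4.39 in MDA-MB-231, and 2.23 and 3.22 in SUM159. CDK2 over CCNE1 went from 5.46 to 3.71 in MDA-MB-231 and stood at 2.95 and 2.98 in SUM159.

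Other genes of the pathway are described by list, and the background shares given for the members apply to them as well. Of 25 E2F target genes of G1/S, most of them for DNA replication but also CCNA2, CDC25A and the transcription factor gene MYBL2, 23 were called lower in MDA-MB-231 and none higher, and their median was -1.116 on the log2 scale. In SUM159 20 were higher and none lower, with a median of 1.158. With total counts 19 were lower in MDA-MB-231 and 22 higher in SUM159. With TMM, 18 were both lower in MDA-MB-231 and higher in SUM159, the directions of E2F1. The lowest in MDA-MB-231 were MCM5 (-1.82, and 0.53 in SUM159), of the replicative helicase, and GINS2 (-1.82, with 97 and 342 counts in SUM159). The highest in SUM159 were CDC45 (2.81, and -1.01 in MDA-MB-231) and CCNA2 (2.64, and -0.73). CDC6, which helps to load the helicase, had -0.28 and 1.84 in MDA-MB-231 and SUM159. CDT1, which acts with it, had -1.40 and -0.19, the latter 0.11 with scaling by total counts. Of 10 G2/M cyclins and kinases, among them CCNA2 again, 9 were lower in MDA-MB-231 and all 10 higher in SUM159, with medians of -1.032 and 2.516. With total counts the 9 became 6, and the 10 were unchanged in number. PLK1, a mitotic kinase, had -1.34 and 2.92.

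The other E2F family genes and partners moved less evenly. Of 11 genes for pocket proteins, E2F and DP factors, 3 were lower and none higher in MDA-MB-231, and 3 were higher and 2 lower in SUM159, with medians of -0.299 and 0.179. With total counts it was 1 lower and 1 higher in MDA-MB-231, and 3 higher and 1 lower in SUM159. E2F2, an activator like E2F1, had 446 and 136 counts in MDA-MB-231 and 91 and 400 in SUM159, with DMSO first. Its log2 fold changes were -1.44 and 1.82. E2F7, a repressor, had 0.52 and 2.17. TFDP2, a DNA-binding partner of E2F factors, had the lowest value in SUM159 at -1.51, and -0.54 in MDA-MB-231. RBL2, a relative of RB1, had 0.25 in MDA-MB-231 and -0.52 in SUM159.

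Of the 7 genes of CDK inhibitors, which restrain the members' kinases, 5 had enough counts in MDA-MB-231, where CDKN2C alone was lower (-1.37, and -0.14 in SUM159, which became 0.16 with total counts) and none was higher. In SUM159 6 had enough counts, 3 were higher and none lower, and the medians were -0.109 and 0.676 in the 2 lines. With total counts these counts were the same and the medians were 0.157 and 0.977. CDKN2D, an inhibitor of CDK4 and CDK6, had 85 and 516 counts there, a log2 fold change of 2.28, against -0.57 in MDA-MB-231. CDKN1A had 1.07 in SUM159 and -0.11 in MDA-MB-231, where total counts gave 0.16. CDKN2A and CDKN2B had no count in either MDA-MB-231 library. Of 12 genes of cyclin turnover and CDK activation, MDA-MB-231 had 2 higher and 3 lower and SUM159 had 3 higher and none lower, with medians of -0.039 and 0.107. Total counts turned this balance in MDA-MB-231, with 4 higher and 2 lower and a median of 0.227, and gave 4 higher and none lower in SUM159. SKP2, a ubiquitin ligase subunit that targets CDK inhibitors, had -1.32 in MDA-MB-231 and -0.07 in SUM159, where total counts gave 0.23. The phosphatase gene CDC25A had -0.69 and 2.13.

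Transcription factors that carry mitogenic signals to the D cyclins made up a list of 12 genes. MDA-MB-231 had 5 of them higher, led by FOS (1.72) and JUNB (1.20), and 1 lower, and the median was 0.201. In SUM159 both FOS and JUNB had 0.11. SUM159 had 2 higher and 2 lower, where FOSL1 (2.61) was highest and ETS1 (-0.83) lowest, and the median was 0.052. In MDA-MB-231 these 2 genes had -0.26 and 0.31, and the value of FOSL1 became 0.0051 with total counts. The calls of lower genes in this list were lost with total counts in both lines, which left 5 higher and none lower in MDA-MB-231 and 2 higher and none lower in SUM159. Of 7 other cyclins and CDKs, none was called in MDA-MB-231. In SUM159 3 of the 6 with enough counts were lower, among them CCNG1 (-1.62, and -0.56 in MDA-MB-231) and CCNI (-1.59, and -0.45). The medians of this list were 0.269 and -0.312. With total counts 3 were higher and none lower in MDA-MB-231, and 1 was higher and 2 lower in SUM159. No gene of these lists had an adjusted p under 0.05 in the edgeR test of a shared change.

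**Figure D4:**
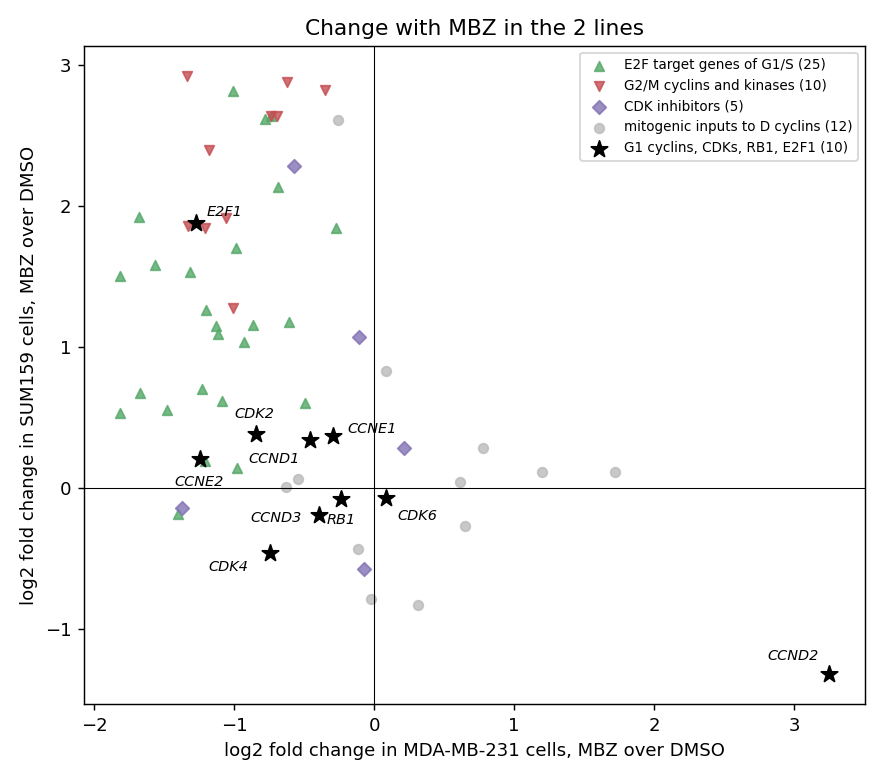
Log2 fold change of MBZ over DMSO in MDA-MB-231 (x axis) against SUM159 (y axis), with 1 point per gene and stars for the 10 members. E2F1 (-1.27 and 1.88) lies among the E2F target and G2/M genes, CCND2 (3.25 and -1.32) lies alone at the lower right, and the other members lie between.

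The genes most like a member over the 4 libraries were taken from 11152 genes by the root mean square difference of centred log2 CPM. For E2F1 these were FAM111B (0.098), CENPF, ZWINT, BCAR3 and FAM83D (0.139). For CCND1 they included TTI1 (0.017), SLC25A11, ATOX1 and JADE2 (0.043). For CCNE2 they were NET1 (0.027), TSPAN15, TOX2, TUBA1A and ARL6IP1 (0.118), and for RB1 MDFIC (0.023), QRICH1, RRP36, DPH7 and ERG28 (0.037). Only genes averaging 100 counts or more were candidates, which left out CCND2 and CCNE2, and with 4 libraries many genes share any one pattern.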

How the data were processed

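Total RNA from both lines was enriched for mRNA and sequenced as 150-bp paired reads. The authors aligned them to GRCh38 with STAR and assigned them to genes with HTSeq in union mode (versions 2.5 and 0.6.1 in the submitters' processing notes). The deposited values are raw counts. The strand setting and the annotation release are not given in the sources used here. The table had no row without a gene, and 58207 of 58735 genes were matched to a symbol through their identifiers. Library totals ranged from 17143139 to 24897586 counts.

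The software was R 4.3.3 with edgeR 4.0.16. Within a line, log2 fold changes were differences of log2 CPM after TMM scaling of the 2 libraries (prior count 0.125), with 95% Clopper-Pearson intervals for the fraction of reads that the MBZ library contributed to a gene. Intervals cover counting error only, since each condition had 1 library. Reads copied by PCR carry no molecular identifiers and are not independent, so the intervals may be too narrow even for counting error. RPKM used TMM over 4 libraries and the exons of GENCODE 44 on GRCh38, whose coordinates are printed and which may not be the release the counts were made with. Intervals of differences between lines or ratios used a normal approximation with the sum of 1/count. Shared changes and line differences came from edgeR's quasi-likelihood test (cell line and treatment, filterByExpr, Benjamini-Hochberg over all genes). DESeq2 1.42.0 and other scalings, filters and thresholds were alternatives, and the functions were tested on simulated data. Upstream stretches were taken from RefSeq on GRCh38.p14. The genes named from each list are drawn from the 2 highest and 2 lowest in each line among those averaging 100 counts or more, and the genes most like a member are the 5 nearest, not all of which are reported here. CDKN2A, CDKN2B and MKI67 were named after their values were seen. The members and lists were chosen with earlier results of these data known.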

Additional observations from a re-analysis of the deposited data

Results flagged for a closer look

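For 5 genes the change with MBZ went one way in MDA-MB-231 and the other way in SUM159, with counting intervals on opposite sides of 0. With 1 library per condition the difference between the lines was not tested. With MDA-MB-231 given first and SUM159 second, the log2 fold changes of MBZ over DMSO were -1.27 and 1.88 for E2F1, 3.25 and -1.32 for CCND2, and -0.85 and 0.38 for CDK2. They were -0.46 and 0.34 for CCND1 and -0.29 and 0.36 for CCNE1, which was no longer in this set with TMM over 4 libraries or with total counts (-0.02 in MDA-MB-231). Opposite intervals were found for 2748 of all 13733 genes measured in both lines.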

How the results depend on the processing

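No log2 fold change of a member that was called at 1.5-fold changed sign under any alternative run, which were DESeq2 size factors, TMM over 4 libraries, total counts and a prior count of 2. Of 80 alternative values of member fold changes, 65 moved by less than the counting interval and 15 by more, all but 1 of these with scaling by total counts. With that scaling 2 members were lower in MDA-MB-231 (4 with TMM, the calls of CDK2 and CDK4 being lost) and 4 were higher in SUM159 (1 with TMM), and the whole table had 4408 genes higher and 1146 lower in the first line and 5135 and 2004 in the second. A threshold of 2-fold left 2 lower members in MDA-MB-231, and a mean of at least 100 counts left 0 higher members there, since CCND2 had a mean of 36 counts. The members that differed between the lines numbered 3 (CCND2, CDK6 and E2F1) with every gene of at least 1 count and 2 (CDK6 and E2F1) with DESeq2's Wald test, against 1. No member had a shared change under any model, while the genes called numbered 298 with every gene of at least 1 count, 100 with DESeq2 and 0 without cell line, against 1. The cause of these moves was not tested. Shares within a class moved in 46 of 56 values recomputed with canonical transcript length or with raw counts. The cell line term of the shared test pairs MBZ with DMSO within each line, and without it no member was called either. The gap between the lines was smaller with MBZ for 8 members with total counts as well, an alternative chosen after seeing the data, as was total-count scaling of the list counts. Leaving out 1 library leaves no spread to estimate. Depth limits CCNE2 in SUM159 (30 and 43 counts) and CCND2 in MDA-MB-231 (8 and 64 counts).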
